A study of Mus musculus with 4 samples.

Results

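Genes that brake mitogen-activated protein (MAP) kinase signalling were followed in tumour-derived mouse myeloid cells with a mutated or a wild-type (WT) Trem2 gene. The 9 genes were 7 dual-specificity phosphatases (Dusp1, Dusp2, Dusp4, Dusp5, Dusp6, Dusp10 and Dusp16) and 2 feedback inhibitors of Ras and ERK signalling (Spry2 and Spred1). They were taken by name from a table of 17476 genes, with read counts of the mutant against the WT libraries in view, so every difference of a member between genotypes is given as a description, with its standard error (SE) and no test. All 9 were among the 14239 genes that passed the filter on low counts.

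The series asked which genes differ between myeloid-derived suppressor cells (MDSCs, immature neutrophil-like and monocyte-like cells that restrain T cells) of Trem2 mutant and of WT mice. Trem2 is a lipid-sensing receptor of macrophages and other myeloid cells. Both groups were of the strain C57BL/6 by their labels, with genotype Trem2_mutant or WT. In both, MDSCs were made in culture from bone marrow and injected into male NRG mice, which have no lymphocytes of their own. The recipients, 6 weeks old at the tumour challenge, carried subcutaneous TRAMP-C1 tumours, a mouse prostate cancer line. The injection came 4 weeks after that challenge. Tumours were collected 6 h after injection and digested with collagenase D and DNase for 45 minutes, and CD45+ CD11B+ GR1+ cells were sorted from them. The recipient's own myeloid cells can carry these same 3 markers. The sources used here do not say which mutation Trem2 carried. RNA was total RNA depleted of ribosomal RNA, sequenced on a NextSeq 500.

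There were 2 libraries per genotype, called Trem2 mutant 1, Trem2 mutant 3, WT 1 and WT 2 after their columns. They held 10306674 and 9820893 reads in the mutant and 8037733 and 8077966 in WT. The labels do not state whether a genotype's libraries came from different animals, so a p-value measures the spread between these libraries, which may be technical. Levels are CPM, the reads of a gene per 1000000 reads after scaling by the trimmed mean of M values (TMM), at which 3 reads correspond to 0.322 to 0.359 CPM. Trem2 had 22.9 and 21.0 CPM in the mutant libraries, against 44.2 and 52.2 CPM in WT (log2 fold change −1.14, edgeR quasi-likelihood adjusted p = 0.00157). Gm42418, a noncoding gene known to collect reads of ribosomal RNA, accounted for 13.9% of reads in Trem2 mutant 1 and 0.418% in Trem2 mutant 3, against 1.04% and 0.258% in WT 1 and WT 2. Xist, the noncoding RNA of the inactive X chromosome, had 6928 and 9117 reads in the mutant and 2 and 3 in WT, so sex of the cells' source and genotype cannot be told apart.

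The sorted cells also differed in cell type markers. Of 14 neutrophil markers 13 rose, with summed levels of 32404 and 26614 CPM in the mutant against 6558 and 6399 CPM in WT, and Ly6g, one of the antigens that the GR1 antibody binds, had 144 and 123 CPM against 5.66 and 7.22 CPM. Of 8 monocyte markers 6 rose (6522 and 5082 CPM summed in the mutant, 1944 and 1977 CPM in WT). Of 10 macrophage markers 4 rose (C1qa, C1qb, C1qc and Apoe) and 2 fell (Gpnmb and the mutated gene Trem2 itself). The 10 summed to 1693 and 1521 CPM in the mutant against 1976 and 2012 CPM in WT. Within these sums Gpnmb alone had 529 and 602 CPM against 1036 and 978 CPM. All 4 tested eosinophil markers rose (sums of 152 and 193 CPM against 71.7 and 71.0 CPM), as did 3 of 5 tested fibroblast markers (sums of 443 and 399 CPM against 157 and 107 CPM). Dendritic cell markers summed to 6.59 and 7.95 CPM in the mutant and 6.31 and 7.01 CPM in WT, and lymphocyte markers to 2.99 and 2.69 CPM against 5.11 and 5.25 CPM. Of 2 tested epithelial markers 1, Cdh1, fell (82.5 and 85.0 CPM in the mutant against 151 and 158 CPM in WT). Of 3 tested endothelial markers Pecam1 rose (97.7 and 75.0 CPM against 57.2 and 62.7 CPM) and Vwf fell (60.3 and 69.4 CPM against 111 and 102 CPM). Summed levels were 84.8 and 87.6 CPM against 153 and 161 CPM for the epithelial list, and 161 and 148 CPM against 169.7 and 166 CPM for the endothelial list. Of the gate's own genes, Ptprc (CD45) and Itgam (CD11b) were high in all libraries, while Ly6g was low in WT. Ptprc had 1328 and 1363 CPM in the mutant against 1114 and 1162 CPM in WT. Itgam had 653 and 643 CPM against 419.7 and 431 CPM. In such bulk RNA, fewer cells of a type and less RNA per cell cannot be told apart, and this holds for each level below. The part of these marker differences in the values of the phosphatase genes and of the gene lists was not tested.

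MAP kinases (ERK, p38 and JNK) are switched on when an upstream kinase phosphorylates a threonine and a tyrosine in their activation loop. MAP kinase phosphatases remove both phosphates. Many of their genes are themselves switched on by MAP kinase signalling, which makes a negative feedback loop, and their messages and proteins are short-lived. Sprouty and Spred proteins act higher up and restrain the step from growth factor receptors through Ras to Raf. In macrophages and neutrophils these genes are best known as part of the early response to bacterial products and cytokines, and Dusp1 is known for limiting p38 activity and inflammatory cytokine output in mice.

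Over the 9 genes, levels did not move as one. Dusp1, Dusp5, Dusp16, Spry2 and Dusp10 were higher in both mutant libraries than in both WT libraries, Dusp4 was lower in both, and the groups overlapped for Dusp2, Dusp6 and Spred1. Of all genes tested, 60.5% had no overlap between the genotypes (28.9% higher and 31.7% lower in the mutant). By the edgeR quasi-likelihood fit over all genes, 4 of the 9 passed an adjusted p of 0.05, 3 higher and 1 lower, beside 13.2% of all genes tested (9.55% higher and 3.6% lower). Because the members were chosen on this contrast, nothing is read from that count. Without WT 1 the same count was 1, which was Dusp4.

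**Figure D1:**
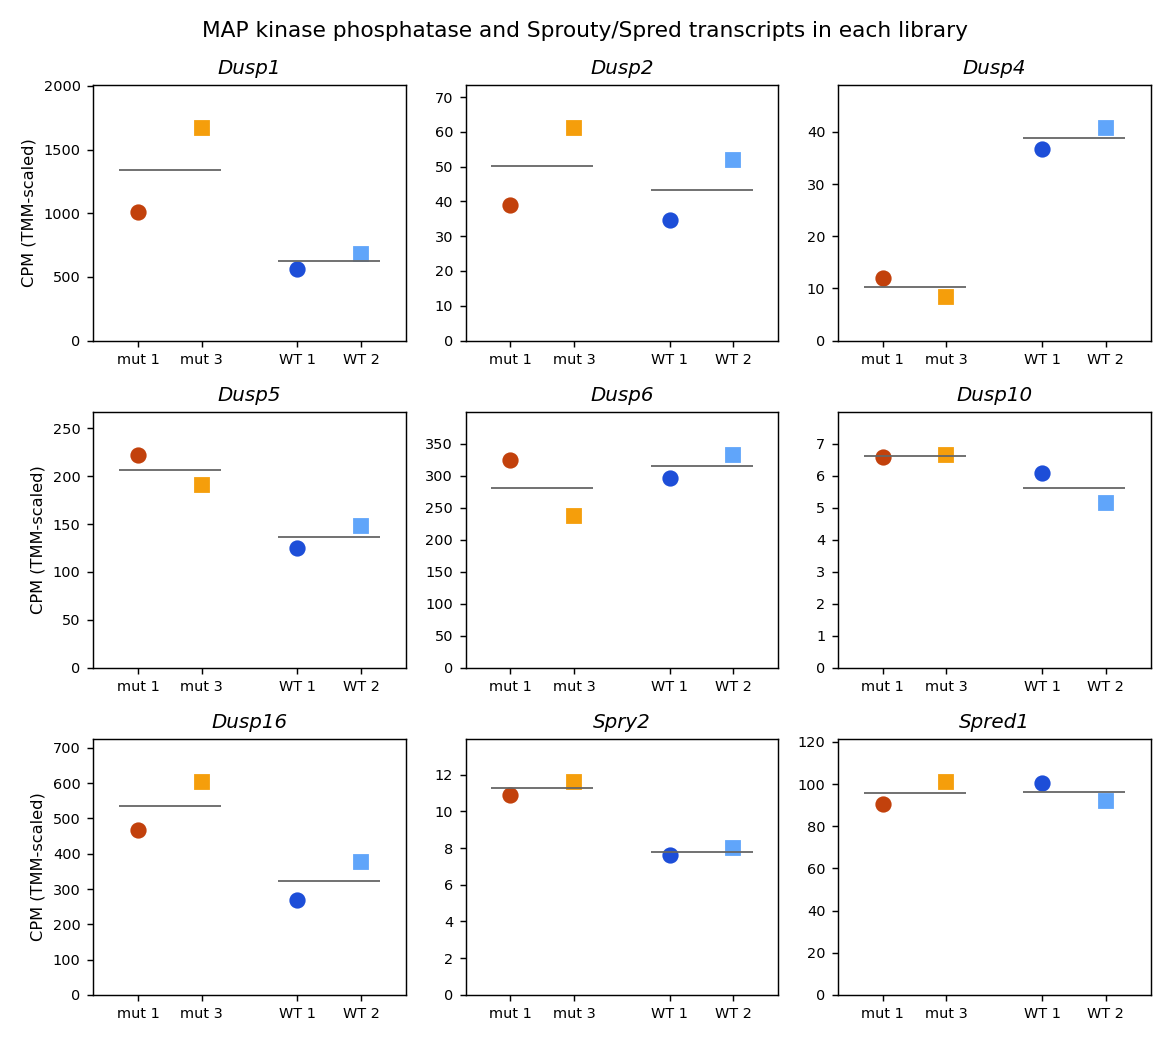
Level of each of the 9 genes in each library, in CPM on a linear axis from 0 (mut 1 and mut 3 are Trem2 mutant libraries 1 and 3). Points are single libraries and lines are group means of 2 libraries. Dusp1 stood at 1011 and 1673 CPM in the mutant and Dusp4 at 11.98 and 8.38 CPM, against 565 and 677 CPM and 36.7 and 40.8 CPM in WT.

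The nuclear, inducible phosphatases come first: Dusp1, Dusp2, Dusp4 and Dusp5, all made in response to MAP kinase activity and acting in the nucleus. Dusp1 (MKP-1; ENSMUSG00000024190, GRCm38 chromosome 17, 26505590 to 26562128, minus strand) acts mainly on p38 and JNK. Its promoter held a CREB site, the letters TGACGTCA recognised by the cyclic AMP-responsive factor CREB and its relatives. This was the only full one among the 8 members with a promoter window, which leave out Dusp4. The Dusp1 promoter window, 250 bases before to 50 bases after the start in RefSeq (GRCm38.p6, chr17:26508423-26508722, minus strand), is shown for that site. That RefSeq start lies inside the longer annotated span given above. Capitals mark the full site, which starts at −143 from the RefSeq start, and a short CREB site at −191. The short site, TGACG, is the core of the full one.
Dusp1 promoter: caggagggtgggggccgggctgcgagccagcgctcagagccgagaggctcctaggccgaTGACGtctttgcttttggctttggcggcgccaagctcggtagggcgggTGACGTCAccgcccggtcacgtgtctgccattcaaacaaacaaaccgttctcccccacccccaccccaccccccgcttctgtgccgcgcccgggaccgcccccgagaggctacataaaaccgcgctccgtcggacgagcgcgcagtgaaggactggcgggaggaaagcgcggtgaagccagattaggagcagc

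Dusp1 had 8439 and 15571 reads, or 1011 and 1673 CPM, in Trem2 mutant 1 and 3, against 5197 and 6186 reads, or 565 and 677 CPM, in WT 1 and 2. Both mutant libraries were above both WT libraries, and the mutant libraries differed more from each other than the WT libraries did. The means were 1342 ± 468 CPM in the mutant and 621 ± 79.1 CPM in WT (SD, n = 2 each), a log2 fold change of 1.11 (SE 0.220) or 2.16-fold. Trem2 mutant 3 carried much of this: without it the log2 fold change was 0.72, and without Trem2 mutant 1 it was 1.44. The annotated gene shares 11 bases of exon with Ergic1 on the other strand. The sources used here do not say whether counting used the strand, so reads of such overlapping genes cannot be told apart.

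Dusp4 (MKP-2; ENSMUSG00000031530, chromosome 8, 34807297 to 34819894, plus strand) encodes a nuclear phosphatase of ERK and JNK. It had 100 and 78 reads in Trem2 mutant 1 and 3, or 11.98 and 8.38 CPM, against 337 and 373 reads, or 36.7 and 40.8 CPM, in WT 1 and 2. The highest mutant library was far below the lowest WT library. Means were 10.2 ± 2.54 CPM in the mutant and 38.7 ± 2.95 CPM in WT (SD, n = 2 each). The log2 fold change of −1.93 (SE 0.173), or 3.82-fold lower, was the largest of the 9 in size, and lay between −2.20 and −1.67 with any 1 library left out. Dusp1 and Dusp4 thus differed in opposite directions between the genotypes. There were 84.4 and 200 (199.6) reads of Dusp1 for each read of Dusp4 in the mutant libraries, against 15.4 and 16.6 in WT. These ratios within a library do not depend on how libraries are scaled.

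Dusp5 (ENSMUSG00000034765, chromosome 19, 53529109 to 53542431, plus strand) encodes a phosphatase that holds inactive ERK in the nucleus. Its promoter window (chr19:53528895-53529194, plus strand, RefSeq GRCm38.p6) is shown because it held adjacent matches to the CArG box, the binding sequence of serum response factor, which works with ERK-activated partners. Capitals mark 2 CArG boxes, which start at −82 and −72 from the RefSeq start, and a short CREB site on the other strand at −55.
Dusp5 promoter: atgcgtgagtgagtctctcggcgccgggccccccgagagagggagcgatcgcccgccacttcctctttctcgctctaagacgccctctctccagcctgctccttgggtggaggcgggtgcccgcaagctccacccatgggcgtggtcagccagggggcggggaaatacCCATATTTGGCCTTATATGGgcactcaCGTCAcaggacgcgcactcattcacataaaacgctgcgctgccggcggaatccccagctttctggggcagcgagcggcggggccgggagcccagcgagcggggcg

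Dusp5 had 1858 and 1777 reads, or 223 and 191 CPM, in Trem2 mutant 1 and 3, against 1150 and 1356 reads, or 125 and 148 CPM, in WT 1 and 2. The groups did not overlap, and here Trem2 mutant 1 was the higher of the mutant pair. The log2 fold change was 0.60 (SE 0.113), or 1.51-fold, with means of 207 ± 22.3 CPM in the mutant and 137 ± 16.5 CPM in WT (SD, n = 2 each). It stayed between 0.48 and 0.72 with any 1 library left out. An annotated antisense gene, not analysed here, shares 547 bases of exon with Dusp5.

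Dusp2 (PAC-1; ENSMUSG00000027368, chromosome 2, 127336159 to 127338376, plus strand) encodes a nuclear phosphatase first found in activated lymphocytes and also present in myeloid cells. It had 325 and 570 reads, or 38.9 and 61.3 CPM, in Trem2 mutant 1 and 3, against 319 and 473 reads, or 34.7 and 51.8 CPM, in WT 1 and 2. The libraries of each genotype lay farther apart than the 2 group means. The log2 fold change was 0.22 (SE 0.239), and it was −0.14 when libraries were scaled by their totals alone, −0.13 without Trem2 mutant 3 and −0.05 (−0.045) without WT 1.

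Dusp6 (MKP-3; ENSMUSG00000019960, chromosome 10, 99263231 to 99267489, plus strand) encodes the cytoplasmic phosphatase specific to ERK, and its message is widely read as a gauge of ERK activity. It had 2712 and 2205 reads, or 325 and 237 CPM, in Trem2 mutant 1 and 3, against 2726 and 3039 reads, or 297 and 333 CPM, in WT 1 and 2. Trem2 mutant 1 fell between the WT libraries and Trem2 mutant 3 below them. The log2 fold change was −0.16 (SE 0.146), and 0.07 (0.065) without Trem2 mutant 3. For each read of Dusp6 there were 0.685 and 0.806 reads of Dusp5 in the mutant, against 0.422 and 0.446 in WT, so the ERK-directed nuclear and cytoplasmic genes changed unequally. The corresponding ratios of Dusp6 to Dusp4 were 27.1 and 28.3 in the mutant against 8.09 and 8.15 in WT, close to equal within each genotype.

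The phosphatases that act chiefly on JNK and p38 were Dusp16 and Dusp10. Dusp16 (MKP-7; ENSMUSG00000030203, chromosome 6, 134715468 to 134792625, minus strand) had 3904 and 5617 reads, or 468 and 604 CPM, in Trem2 mutant 1 and 3, against 2480 and 3427 reads, or 269.8 and 375 CPM, in WT 1 and 2. Both mutant libraries were above both WT libraries, with a gap smaller than the spread of either pair. Means were 536 ± 96.2 CPM in the mutant and 322 ± 74.5 CPM in WT (SD, n = 2 each), a log2 fold change of 0.73 (SE 0.174) or 1.66-fold, and between 0.51 and 0.99 with any 1 library left out. Dusp10 (MKP-5; ENSMUSG00000039384, chromosome 1, 184013302 to 184075636, plus strand) had 55 and 62 reads, or 6.59 and 6.66 CPM, in the mutant against 56 and 47 reads, or 6.09 and 5.14 CPM, in WT. The log2 fold change was 0.24 (SE 0.224) and −0.14 with library totals alone, where the median of all genes was −0.40. Both genes are overlapped by an annotated gene on the other strand that shares no exon base with them.

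Among the inhibitors upstream of ERK, Spry2 (ENSMUSG00000022114, chromosome 14, 105891947 to 105896819, minus strand) had 91 and 108 reads, or 10.9 and 11.6 CPM, in Trem2 mutant 1 and 3, against 70 and 73 reads, or 7.61 and 7.99 CPM, in WT 1 and 2. The libraries of a genotype were close together and the groups apart. The log2 fold change was 0.53 (SE 0.180), or 1.44-fold, between 0.49 and 0.58 with any 1 library left out, and 0.16 with library totals alone. Spred1 (ENSMUSG00000027351, chromosome 2, 117121374 to 117182279, plus strand), which brings neurofibromin to the membrane to switch Ras off, had 756 and 940 reads, or 90.6 and 101 CPM, in the mutant against 922 and 840 reads, or 100.3 and 91.9 CPM, in WT. Its log2 fold change was 0.00 (−0.0044, SE 0.0913), the smallest of the 9, and −0.37 with library totals alone.

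**Figure D2:**
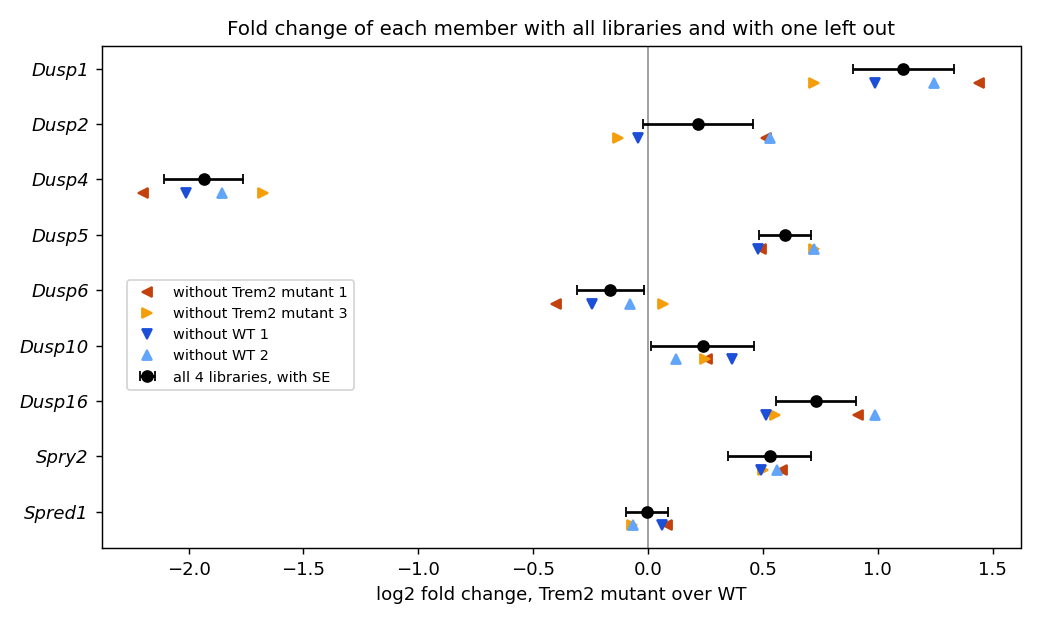
Log2 fold change of each gene, Trem2 mutant over WT. Black points use all 4 libraries with bars of 1 SE, and coloured triangles leave out 1 library each. Dusp1, Dusp5, Dusp16, Spry2 and Dusp10 stayed above 0 and Dusp4 below 0 in each of these fits, while Dusp2, Dusp6 and Spred1 crossed it.

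The scaling bears on these values. Across all genes tested the log2 fold changes had a median of −0.02, and of −0.40 when libraries were scaled by their totals alone, which count the Gm42418 reads of Trem2 mutant 1. On that second scale, and so to be read against −0.40, Dusp1 was at 0.77, Dusp16 at 0.38 (0.375), Dusp5 at 0.22, Spry2 at 0.16, Spred1 at −0.37, Dusp6 at −0.55 and Dusp4 at −2.32. The median of the 9 was 0.24 in the first scaling and −0.14 in the second.

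Compared per length of transcript, Dusp1 was the leading phosphatase message in all 4 libraries. In CPM per kilobase it stood at 508 and 841 in Trem2 mutant 1 and 3, against 284 and 340 in WT 1 and 2. Then came Dusp6 (116 and 84.8 in the mutant, 106 and 119 in WT), Dusp16 (91.6 and 118 against 52.9 and 73.5) and Dusp5 (90.0 and 77.2 against 50.6 and 60.02), all in CPM per kilobase. In the mutant libraries the range of Dusp6 overlapped those of Dusp16 and Dusp5, and in WT the ranges of Dusp16 and Dusp5 overlapped each other. The order of these 3 also changed when the length of all annotated exons was used in place of 1 transcript. Below them lay Dusp2 (24.1 and 37.9 against 21.5 and 32.0 CPM per kilobase) and Spred1 (15.1 and 16.8 against 16.7 and 15.3 CPM per kilobase).

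The low end of the order differed between genotypes. Dusp4 had 4.37 and 3.06 CPM per kilobase in the mutant, below Spry2 with 5.22 and 5.56 CPM per kilobase. In WT it had 13.4 and 14.9 CPM per kilobase, above Spry2 with 3.65 and 3.83. Dusp10 was the least abundant member throughout, at 2.36 and 2.39 CPM per kilobase in the mutant and 2.18 and 1.84 in WT.

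Summed over the 9 MAP kinase phosphatase genes tested (these 7 with Dusp7 and Dusp8), the level was 849 and 1175 CPM per kilobase in the mutant libraries, against 547 and 658 in WT. Dusp1 made up 59.9% and 71.5% of that sum in Trem2 mutant 1 and 3, against 52.0% and 51.7% in WT 1 and 2, so the WT pair was nearly equal and the mutant pair spread. Its mean share was 65.7 ± 8.26% in the mutant and 51.8 ± 0.196% in WT (SD, n = 2 each). With the length of all annotated exons these shares were 57.9% in the mutant and 42.8% in WT. Dusp4 made up 0.388 ± 0.180% of the sum in the mutant and 2.36 ± 0.130% in WT. The cytoplasmic ERK phosphatases Dusp6 and Dusp7 took 15.0% and 8.09% in the mutant, against 22.3% and 20.6% in WT. The JNK and p38 phosphatases Dusp8, Dusp10 and Dusp16 took 11.1% and 10.3% in the mutant, against 10.1% and 11.5% in WT, a share in which the genotypes overlapped.

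**Figure D3:**
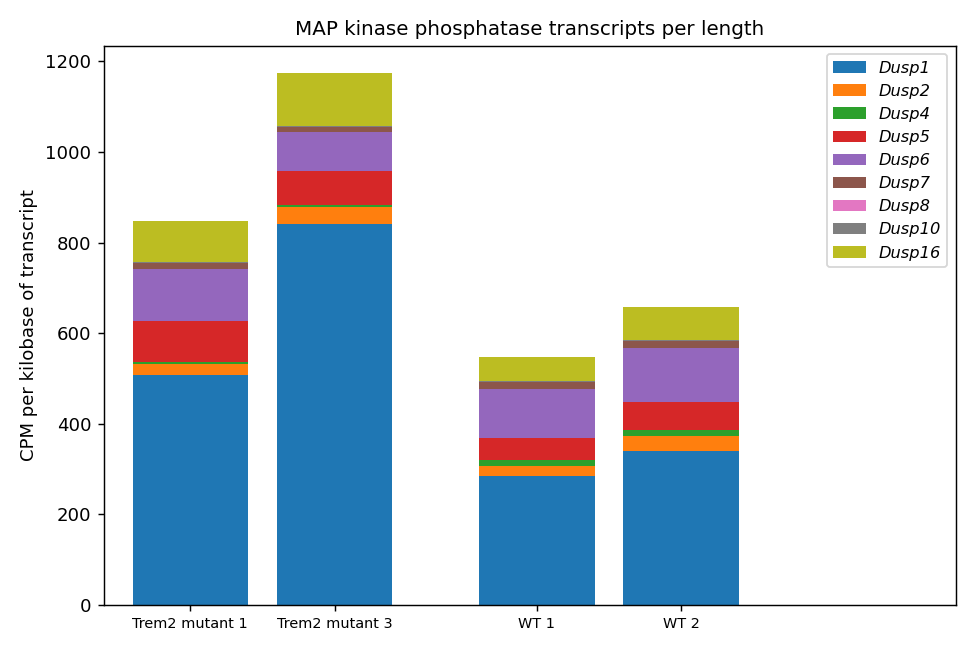
Stacked level of the 9 MAP kinase phosphatase genes tested, in CPM per kilobase of a representative transcript, 1 bar per library. The bars reach 849 and 1175 in the mutant and 547 and 658 in WT, and Dusp1 is the largest block of each.

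Several members, though not all, varied more between libraries of 1 genotype than most genes did. Over the 10200 genes with a mean of at least 5 CPM, the median absolute log2 difference was 0.15 (0.145) between the mutant libraries and 0.11 between the WT libraries. Over the 9 members it was 0.37 in the mutant pair and 0.24 in the WT pair. Dusp1 was 1.66-fold higher in Trem2 mutant 3 than in Trem2 mutant 1, a difference larger than that of 97.2% of those genes, and Dusp2 was 1.57-fold higher (96.2%). Dusp2 (1.49-fold) and Dusp16 (1.39-fold) also stood apart in the WT pair, higher in WT 2 than in WT 1 by more than 96.3% and 94.2% of genes. Dusp4 and Dusp6 ran the other way in the mutant pair, at 0.700-fold and 0.729-fold in Trem2 mutant 3 relative to Trem2 mutant 1. Others differed less in the mutant pair: Dusp10 by more than 6.0% of genes did, Spry2 by more than 33.5% and Spred1 by more than 53.7%. In the WT pair these shares were 79.0%, 33.7% and 53.5%. In all, 6 of 9 members were higher in Trem2 mutant 3 than in Trem2 mutant 1 and 7 of 9 in WT 2 than in WT 1, beside 50.5% and 49.2% of all genes tested.

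Some genes tracked single members across the 4 libraries. Likeness was the distance between log2 CPM profiles, each centred on its own mean, among 10193 genes. Nearest to Dusp1 were Il1b (distance 0.120), Cd14, the co-receptor for bacterial lipopolysaccharide (0.123), and Socs3, an inhibitor of cytokine receptor signalling (0.144). Nearest to Dusp16 were Lmnb1 (0.083), Nlrp3, the inflammasome sensor (0.084), and Trib1 (0.110). For Dusp4 the gene Tanc1 lay at 0.141, and the next, Atp6v0c-ps2 and Clec4a3, were much farther at 0.464 and 0.486. Dusp5 had close neighbours in Myo10 (0.018), Siglecg (0.036) and Mthfd2l (0.048). The remaining members were nearest to Gm44321, Pvr and Ftx (Dusp2), Zc3h3, Card19 and Cep83os (Dusp6), Tmem263, Tmem135 and Panx1 (Dusp10), Rabgap1l, Smarca2 and Cast (Spry2) and Ino80c, Taf8 and Ppp3r1 (Spred1). With 4 libraries, a profile holds little beyond the genotype gap and the gaps within each pair.

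The gene structures shared features that were not themselves used to choose the members. Genes of 1 family can share a structure, and 5 of the 7 Dusp members had 4 exons, so the exon count is not independent of that choice. Of the 9 representative transcripts, 7 had at most 4 exons, beside 19.9% of 11482 tested genes with such a transcript, whose median was 9. All 9 had at least 1 ATTTA, the core of AU-rich elements that shorten message life, in the 3′ untranslated region, beside 66.3% of tested genes. Dusp1 and Dusp2 each had 4, or 5.80 and 6.88 per kilobase of that region, where the median gene had 1.26. Dusp5, Dusp6 and Dusp16 lay below that median, at 0.90, 0.84 and 1.24 per kilobase, and the other members above it. Spred1 had 12, in a long region of 4330 bases. The longer motif TTATTTATT was present in Dusp1 alone among the members, 2 times, beside 7.4% of tested genes with at least 1. These are letters in annotated transcripts, and no decay was measured.

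Promoter windows were found for 8 members, with Dusp4 the remaining gene. Both strands were searched, and shares are given for all 32851 windows and for the 9779 windows of tested genes. The full CREB site was in 1 of 8, in 1.8% of all windows and in 3.3% of those of tested genes. The short site TGACG, which lies inside the full site, was in Dusp1, Dusp2, Dusp5 and Dusp16, in 20.8% of all windows and in 31.9% of those of tested genes. The CArG box was in Dusp5, in 1.6% of all windows and in 1.3% of those of tested genes. The GC box GGGCGG was in 6 of 8 members (35.7% and 62.4%). None of the 8 windows held the AP-1 site TGANTCA (7.8% and 5.3%), the ETS site CCGGAAGT (3.9% and 8.7%), the NF-kB site (8.5% and 10%) or the TATA box TATAAA (13.6% and 7.1%).

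Beyond the 9 genes, the rest of the same families was examined in the same fit. As background, 9.55% of all genes tested rose and 3.6% fell, and the median log2 fold change was −0.02. Of the other MAP kinase phosphatases tested, Dusp7, a cytoplasmic ERK phosphatase like Dusp6, fell to 37.0 and 33.1 CPM in the mutant, against 51.6 and 53.5 CPM in WT (log2 fold change −0.58, SE 0.103, edgeR adjusted p = 0.0108). That call was lost without WT 1 (log2 fold change −0.61) and without WT 2 (−0.56). Dusp8 had 2.16 and 2.90 CPM in the mutant against 0.544 and 1.09 CPM in WT (adjusted p = 0.0525). Of 13 atypical and slingshot phosphatases tested, 2 rose, and both act on the actin regulator cofilin: Ssh1 (77.9 and 75.9 CPM against 54.5 and 57.7 CPM, adjusted p = 0.0142) and Ssh2 (319 and 363 CPM against 248 and 253 CPM, adjusted p = 0.0188). Neither call held without WT 1, without WT 2 or with library totals alone. Of the other Sprouty and Spred genes, 0 of 3 passed by edgeR, DESeq2 or limma-voom, and 1 had an unadjusted p under 0.05. That was Spred2, with 35.9 and 37.0 CPM in the mutant against 30.5 and 27.6 CPM in WT (adjusted p = 0.0887). Spred3 had 2.04 and 1.61 CPM against 2.07 and 1.97 CPM.

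Other brakes on Ras and ERK or on growth were mixed, with 4 of 20 tested genes higher and 1 lower. Dab2ip, a Ras GTPase-activating protein gene, rose to 30.3 and 30.6 CPM in the mutant, against 15.2 and 16.6 CPM in WT (log2 fold change 0.93, SE 0.121, edgeR adjusted p = 0.00298). Tob1, Rasa2 and Errfi1, a feedback inhibitor of the EGF receptor family, also rose (adjusted p of 0.0149, 0.0252 and 0.0324). None of these 3 was called without WT 1 or with library totals alone, and Tob1 and Rasa2 were not called without WT 2. Dok1, an adaptor that recruits Ras GTPase-activating protein, fell to 25.9 and 23.2 CPM in the mutant, against 39.8 and 40.1 CPM in WT (log2 fold change −0.70, adjusted p = 0.00653, and not called without WT 1). The median log2 fold change of the 20 was 0.22, and −0.15 with library totals alone, against −0.02 and −0.40 over all genes tested.

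For the kinase cascades themselves the share of genes called was near that of all genes tested. Of 32 ERK cascade genes 4 rose, beside 9.55% of all genes, with a median log2 fold change of 0.08. Among them were Sos2, a Ras exchange factor (95.1 and 112 CPM in the mutant against 63.4 and 64.6 CPM in WT, edgeR adjusted p = 0.00450), Rasgrp3, another (3.95 and 4.51 CPM against 0.870 and 1.31 CPM, adjusted p = 0.0118), and Map2k1 (adjusted p = 0.0464). The last of these had a log2 fold change of 0.29 (SE 0.0756), and its call was lost by DESeq2, by limma-voom, with upper quartile scaling, with library totals alone, with no filter, without WT 1 and without WT 2. Rasgrp3 was not called without WT 1, and Sos2 not with library totals alone. Of 28 genes of the p38 and JNK cascades 2 rose and 1 fell, beside 13.2% of all genes called in either direction, with a median of 0.01. Mapk13, which encodes p38 delta, a form found in neutrophils, rose to 87.9 and 73.1 CPM in the mutant, against 43.8 and 40.1 CPM in WT (log2 fold change 0.94, SE 0.116, adjusted p = 0.00246). Map2k4, a kinase of JNK and p38, rose to 170.0 and 168 CPM, against 105 and 127 CPM (adjusted p = 0.0140). Map3k20, a stress kinase also known as ZAK, fell to 61.7 and 68.5 CPM in the mutant, against 96.6 and 96.3 CPM in WT (log2 fold change −0.57, adjusted p = 0.00610). Map2k4 and Map3k20 were not called without WT 1. Map2k4 was also not called with library totals alone (log2 fold change 0.17). With library totals alone the list medians were −0.29 and −0.36, against −0.40 over all genes.

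Of 22 tested genes known as targets of ERK 11 were higher, beside 9.55% of all genes tested. This list, like all lists here, was chosen with earlier results of these data known, so nothing is read from that excess. The list's median log2 fold change was 0.65, and 0.49 without WT 1. Plaur, the urokinase receptor, rose to 954 and 1045 CPM in the mutant, against 505 and 536 CPM in WT (log2 fold change 0.94, SE 0.0986, edgeR adjusted p = 0.00122). Fosl1, which encodes the AP-1 protein FRA-1, rose to 16.1 and 13.4 CPM, against 4.24 and 4.49 CPM (log2 fold change 1.75, SE 0.203, adjusted p = 0.00186). Maff (log2 fold change 0.72, adjusted p = 0.00331) and Etv5, an ETS factor induced by ERK (0.81, adjusted p = 0.00355), rose as well. With library totals alone 4 of the 11 calls were kept, and those of Maff and Etv5 were lost. The list median stayed above 0 on that scale, at 0.27 (0.265). The summed neutrophil marker level differed in the same direction (32404 and 26614 CPM in the mutant, 6558 and 6399 CPM in WT), and its part in these calls and in the immediate early and cytokine calls was not tested.

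Tissue digestion can itself induce immediate early and heat shock genes. Of the 21 tested, 7 rose and the median log2 fold change was 0.53. Klf6 rose to 761 and 869 CPM in the mutant, against 549 and 525 CPM in WT (log2 fold change 0.60, edgeR adjusted p = 0.00912). Btg2 (0.85, adjusted p = 0.0146), Rhob (0.71, adjusted p = 0.0181) and Klf2 (0.66, adjusted p = 0.0227) also rose. Klf6, Rhob and Klf2 were not called with library totals alone. Of 13 tested cytokine and effector genes of activated myeloid cells, many of which p38 signalling promotes, 6 rose and the median was 1.08. Ccl3, a neutrophil and monocyte attractant, rose to 658 and 961 CPM in the mutant, against 399.9 and 492 CPM in WT (log2 fold change 0.86, SE 0.182, adjusted p = 0.0209). Nos2 (1.35, adjusted p = 0.0244), Cxcl2 (1.26, adjusted p = 0.0284) and Csf3 (1.58, adjusted p = 0.0370) rose too. Cxcl2 was not called by DESeq2. Tnf had 269.6 and 372 CPM against 164 and 320 CPM, and its groups overlapped. Neither list had a call without WT 1, where their medians were 0.35 and 0.75. Of the 39 calls over all these lists, 7 passed again without WT 1, 23 without WT 2, and all 39 without Trem2 mutant 1 and without Trem2 mutant 3, 31 by DESeq2 and 37 by limma-voom.

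**Figure D4:**
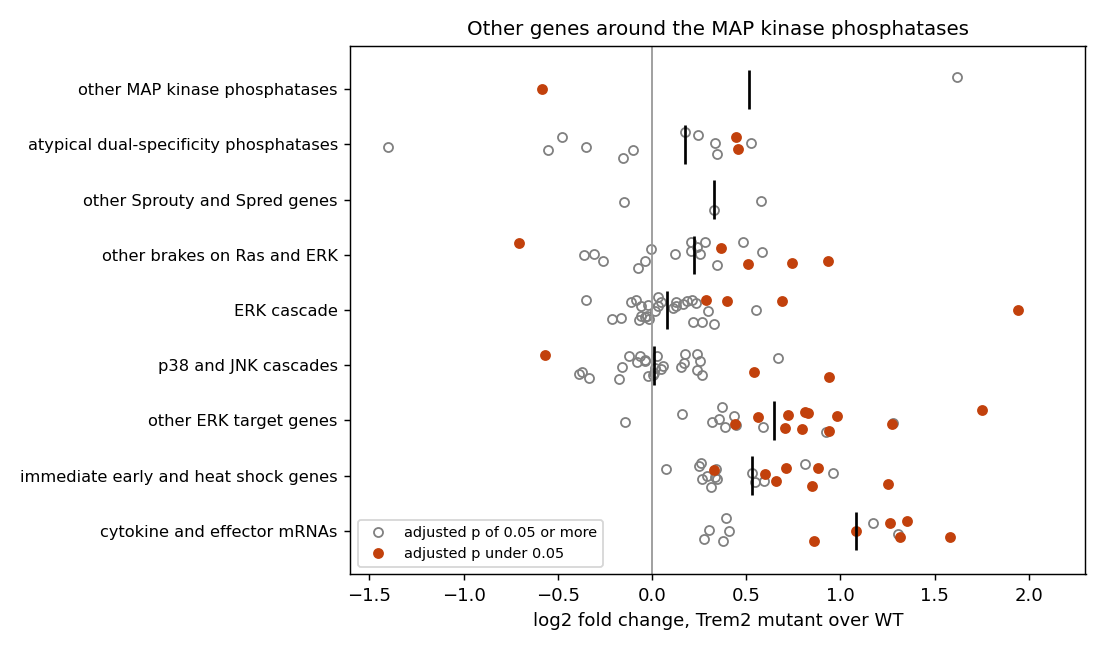
Log2 fold change, Trem2 mutant over WT, of each tested gene in 9 lists of genes around the phosphatases. Filled points had an edgeR adjusted p under 0.05, open points did not, and black bars are list medians. The ERK cascade and the p38 and JNK cascades centre near 0 (medians 0.08 and 0.01), and the lists of ERK targets, immediate early genes and cytokines lie to the right (0.65, 0.53 and 1.08).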

How the data were processed

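RNA of sorted tumour MDSCs was measured in 4 libraries, 2 Trem2 mutant and 2 WT. The authors deposited raw counts of reads per Ensembl gene. The submitters' processing notes name GRCm38 (mm10), STAR 2.5.2a, FastQC and DESeq2. How reads were counted, with or without strand and against which annotation release, is not stated there. No gene had fewer than 11 reads in all. Names and positions came from GENCODE M21 (17422 of 17476 IDs matched).

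The counts were fitted with edgeR 4.0.16 in R 4.3.3 (filterByExpr, TMM, two-sided quasi-likelihood test, Benjamini-Hochberg at 0.05 over 14239 genes), and the script was checked on simulated counts. Only 2 residual degrees of freedom came from the libraries, beside 5.71 shared across genes. SEs come from the F statistic. Levels per kilobase divide CPM by the length of 1 representative transcript per gene. Floors cover counting error only. The column numbered 3 of the mutant matches no replicate number of the labels.

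The members and all lists were chosen with earlier results of these data known. Named genes were the members, Trem2, up to 4 called genes per direction of each list with the lowest p (for a list with no call, the 2 highest), and the 3 nearest profiles of each member among genes with a mean of at least 5 CPM. Gm42418, Xist, Ly6g, Ptprc, Itgam, C1qa, C1qb, C1qc, Apoe, Gpnmb, Cdh1, Pecam1, Vwf, Tnf, Dusp8 and the genes of the last section were named outside that rule. One gene that the rule takes is not reported here. Alternatives were RLE, upper quartile and library totals as scaling, a filter of 10 reads in 2 libraries with a mean of 1 CPM, or none, DESeq2 1.42.0, limma-voom (limma 3.58.1), the other quasi-likelihood form, nuclear protein-coding genes only, each library left out, and, chosen after seeing the data, the length of all annotated exons.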

Additional observations from a re-analysis of the deposited data

How the results depend on the processing

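Over all genes, 1873 passed (1360 higher, 513 lower), between 581 and 3002 with 1 library left out, and 5015 with library totals alone (650 higher, 4365 lower). Library totals alone gave 2 calls among the other MAP kinase phosphatases (1 higher, 1 lower) and 8 in the ERK cascade (1 higher, 7 lower). The same scaling gave 8 calls in the p38 and JNK cascades (1 higher, 7 lower). Among ERK targets it gave 5 (4 higher, 1 lower), and among immediate early genes 3, all higher. The median of the members was then −0.14 (−0.135). Library totals alone put Spred2 at −0.04 (−0.043), Rasa2 at −0.01 and Map2k1 at −0.09 (−0.088). The median of all genes was −0.40 there, so these 3 genes stayed above that median. RLE and protein-coding genes alone each gave 2 calls among the other MAP kinase phosphatases. DESeq2 gave 2 in the ERK cascade and 3 among the cytokines. With 1 library left out, calls lay between 0 and 2 for the other MAP kinase phosphatases, 0 and 4 for atypical phosphatases, 1 and 8 for other brakes, 1 and 8 for the ERK cascade, 1 and 4 for p38 and JNK, 4 and 16 for ERK targets, 0 and 17 for immediate early genes and 0 and 10 for cytokines. The median log2 fold change of the members lay between 0.25 and 0.53, and that of Spred3 between −0.31 (−0.312) and 0.03 (0.031). The share of Dusp1 in WT was 42.8% with the length of all exons. The cause was not tested in any of these cases. Of 494 values of single genes under the alternatives, 48 lost the call while keeping their sign, where calls of the members were not counted. On the other side of 0 lay 13, among them values of Dusp2, Dusp6, Dusp10 and Spred1. Rasa2 and Map2k1 with library totals alone both lost the call and crossed 0. No paired analysis was possible because the columns of the genotypes share only the number 1. With 2 libraries a genotype, low genes such as Dusp10 and Spry2 rest on 47 to 108 reads a library.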

Other observations

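The immediate early and heat shock genes did not follow one order within the mutant pair, as Dusp1 and Dusp4 did not. These genes were chosen after their values were seen. Nr4a1, an orphan nuclear receptor gene of the early response, had 370 and 740 (740.5) CPM in Trem2 mutant 1 and 3, against 212 and 255 CPM in WT 1 and 2. Zfp36, whose protein binds AU-rich elements and speeds the decay of cytokine messages, had 822 and 1363 CPM in the mutant against 498 and 687 CPM in WT. Like Dusp1, both were higher in Trem2 mutant 3. Jun ran the other way, with 520.5 and 254 CPM in the mutant against 296 and 354 CPM in WT. So did the heat shock gene Hspa1a, with 39.3 and 10.96 CPM against 10.01 and 15.5 CPM. For Jun both WT values lay between the mutant ones, and for Hspa1a only that of WT 2 did. Of the 21 genes in the list, 8 were higher in Trem2 mutant 3 than in Trem2 mutant 1, and 16 were higher in WT 2 than in WT 1. Of the 13 tested cytokine genes, 11 were higher in Trem2 mutant 3 and 12 in WT 2.

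Il1a and Ptgs2, the gene of the inducible cyclooxygenase, did not pass the edgeR test (adjusted p = 0.0855 and 0.0644), with wide gaps inside each genotype. Ptgs2 had 1868 and 4482 CPM in the mutant against 979 and 1595 CPM in WT, and Il1a had 297 and 617 CPM against 134 and 272 CPM.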
